A study of Mus musculus with 4 samples.

Results

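Ear1, Ear2, Ear6 and Ear10 encode eosinophil-associated ribonucleases, and they were described here across the macrophages and monocytes of mouse lung tumours. The 4 genes were taken by their symbols from the 32289 features of a single-cell RNA count matrix, and all 4 were found. Their counts were read mainly in the 2 libraries made before immune cells were depleted, since those hold the myeloid cells.

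The tumours grew in mice whose genotype includes p53frt, Rosa-FSF-CreERT2 and Hnf4aflox, which all 4 libraries share. Tumours were started by putting an adenovirus with mSPC-FlpO, a Flp recombinase behind a mouse surfactant protein C promoter, into the airways. Flp removes p53 and switches on CreERT2, so tamoxifen is meant to delete Hnf4a in the cells that took up Flp and not in macrophages. At week 10 the mice received tamoxifen or vehicle, named as ethanol in one label and as corn oil in another, and tumour cells were collected 2 weeks later. Each suspension was sequenced before and after removal of CD45 and CD31 cells with beads, so the 4 groups are vehicle or tamoxifen, each with and without immune cells, with 1 library in each. The number and age of the mice behind each suspension are not given in the sources used here.

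With 1 library per group there was no replicate check and no test. Every interval below is a 95% interval for counting error only, which leaves out differences between mice. After filtering, 7079 cells of the vehicle library and 6111 of the tamoxifen library remained before depletion, with a median of 9302 and 9894 UMIs per cell (a UMI, or unique molecular identifier, marks 1 captured RNA molecule). Any pair of the 4 libraries shared 10 to 18 cell barcodes, 0.152% to 0.274% of the smaller list. Hnf4a in epithelial-like cells stood at 57.0 and 55.0 CPM in the vehicle libraries before and after depletion and at 86.7 and 83.0 CPM in the tamoxifen libraries, so it was higher where its deletion is labelled. CPM here is a gene's UMIs per 1000000 UMIs of the cell class. The labels do not say which exons are floxed and the counts are tagged at the 3′ end of the transcript, so these values do not check the labels. Below, "vehicle" and "tamoxifen" mean the libraries so labelled, and no direction is drawn for the deletion of Hnf4a.

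Eosinophil-associated ribonucleases are small secreted proteins of the RNase A superfamily, which cut RNA and include members with antiviral, antibacterial and chemoattractant activity. In mice the family has expanded into a cluster of near-identical genes and pseudogenes, and it is made by eosinophils and by alveolar macrophages. Alveolar macrophages live in the air spaces, clear surfactant and depend on GM-CSF and the transcription factor PPARg. Classical monocytes are the circulating cells that enter inflamed tissue, non-classical monocytes patrol vessels, and C1q macrophages are tissue macrophages marked by complement C1q.

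All 4 genes lie on mouse chromosome 14 (GENCODE M21, GRCm38), in 2 stretches. Ear1 (ENSMUSG00000072601) spans chr14:43818765-43875517 on the minus strand, Ear10 (ENSMUSG00000090166) chr14:43922720-43923559 on the minus strand, and Ear2 (ENSMUSG00000072596) chr14:44102654-44103534 on the plus strand. Ear6 (ENSMUSG00000062148) lies apart from these at chr14:51853699-51854643 on the plus strand. The same annotation holds 10 Ear pseudogenes, none of them among the features counted, and 2 of them, Ear-ps12 and Ear-ps9, overlap the Ear1 gene. The bases upstream of the 4 genes are shown because the members were high and low in the same cells while their ratio differed between cell types. The sequences are from RefSeq (GRCm38.p6), each 250 bases before the RefSeq start, at chr14:43819640-43819889 (minus) for Ear1, chr14:44102404-44102653 (plus) for Ear2 and chr14:43923597-43923846 (minus) for Ear10. For Ear6 only the 181 bases at chr14:51853518-51853698 (plus) are printed, since GENCODE starts the gene at the next base. The Ear1 window lies in an intron of the GENCODE gene, whose longer transcript starts far upstream of the RefSeq start. Capitals mark bases that, between the ends of the aligned Ear2 window, differ from it or have no Ear2 base opposite. Bases that reach past an end of the Ear2 window, such as the last bases of Ear1 and Ear10, stay in lower case. Ear2 is the reference in lower case throughout.
Ear2: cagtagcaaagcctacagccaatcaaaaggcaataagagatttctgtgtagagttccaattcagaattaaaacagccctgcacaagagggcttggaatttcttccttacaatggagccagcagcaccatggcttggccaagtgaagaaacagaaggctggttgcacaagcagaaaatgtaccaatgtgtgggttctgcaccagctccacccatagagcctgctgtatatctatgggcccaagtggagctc
Ear1: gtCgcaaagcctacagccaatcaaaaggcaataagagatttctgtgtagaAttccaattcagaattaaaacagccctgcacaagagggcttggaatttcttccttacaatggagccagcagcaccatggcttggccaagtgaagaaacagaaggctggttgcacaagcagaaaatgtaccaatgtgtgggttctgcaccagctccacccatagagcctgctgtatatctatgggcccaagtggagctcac
Ear10: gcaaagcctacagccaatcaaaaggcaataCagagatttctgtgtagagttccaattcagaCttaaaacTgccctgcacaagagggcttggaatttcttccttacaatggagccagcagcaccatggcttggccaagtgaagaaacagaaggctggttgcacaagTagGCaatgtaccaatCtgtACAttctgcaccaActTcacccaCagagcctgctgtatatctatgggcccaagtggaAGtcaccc
Ear6: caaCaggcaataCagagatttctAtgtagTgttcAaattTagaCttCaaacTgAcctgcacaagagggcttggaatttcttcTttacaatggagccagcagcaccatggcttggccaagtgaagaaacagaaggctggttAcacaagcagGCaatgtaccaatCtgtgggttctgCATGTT

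The Ear1 and Ear2 windows were almost the same, with 246 of 248 aligned bases identical (99.2%). Ear10 shared 231 of 245 aligned bases with Ear2 (94.3%), and the full 250 bases of Ear6 shared 211 of 227 aligned bases (93.0%). Searched on both strands of the 250 bases, CCAAT was found 3 times upstream of Ear1, Ear2 and Ear10 and 1 time upstream of Ear6, and 33.8% of 32851 windows of this length hold it. AGGTCA, part of the sites that nuclear receptors bind, was found 1 time upstream of Ear6 and not in the other windows (14.0% of all windows hold it). TATAAA (12.4% of all windows) and GAGGAA, an ETS core (23.3%), were in none of the 4. A match describes letters only, and no match says no more than that these letters are not in the window.

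The transcripts are also alike, in most pairs somewhat less than the upstream bases, which limits how far the counts can be told apart. Ear1 and Ear2 were 96.8% identical over aligned bases, Ear2 and Ear10 94.7%, Ear1 and Ear10 93.3%, and Ear6 was 88.8% to 89.3% identical to the other members. In the last 500 bases, where 3′ tags fall, 26.3% of 90-base stretches of Ear1, 25.5% of Ear10 and 9.7% of Ear2 occur exactly in another gene, against 0 of the 411 stretches of Ear6. With 50-base stretches the shares were 58.1%, 41.0%, 38.1% and 2.0% in the same order. Reads from such stretches can be lost or placed on a paralog, so the levels of Ear1, Ear2 and Ear10 relative to each other are uncertain. The comparison of 1 gene between cell classes rests on the same mapping in every class. Reads placed on a paralog would still follow the level of their own gene in each class. How far the levels of Ear1 follow those of Ear2 for this reason was not tested. A UMI counts a molecule and not a length, and the 4 transcripts are 678 to 893 bases long, so levels of different members are given as CPM without a length correction.

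Cells were named from clusters made without any gene whose symbol starts with Ear, so that the members did not define the classes. The alveolar macrophage-like class held 1355 vehicle and 1877 tamoxifen cells (19.1% and 30.7% of cells before depletion), and 13 and 11 of its 13 marker genes were seen in at least 10% of its cells. A further 160 and 150 alveolar macrophage-like cells were cycling: all 13 cell cycle markers were seen in at least 10% of them, with a summed level of 3089 and 3817 CPM against 64.7 and 54.0 CPM in the other alveolar cells. The monocyte-like classes were small, with 55 and 48 classical and 65 and 50 non-classical cells, and all 10 of each class's markers passed the same mark. The C1q macrophage-like class held 350 and 286 cells, with 9 of its 11 markers past it. Eosinophils, the other textbook source of these genes, were not seen as a class. Of the 6 eosinophil markers, Epx, Ccr3, Il5ra and Alox15 had no UMI in the non-cycling alveolar macrophage-like cells of either library, and the list's summed level of 72.5 and 96.3 CPM there came almost wholly from Siglecf, which alveolar macrophages also carry.

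Ear2 was the most abundant member in alveolar macrophage-like cells, followed by Ear10, Ear1 and, far lower, Ear6. Ear2 reached 1951 CPM (1927 to 1976) in vehicle and 1722 CPM (1702 to 1741) in tamoxifen, or 17.6 and 16.2 UMIs per cell. Ear10 stood at 860 and 762 CPM and Ear1 at 613 and 584 CPM, or 7.75 and 7.18 and 5.52 and 5.50 UMIs per cell. Ear6 stood at 65.1 and 64.8 CPM, about 0.587 and 0.611 UMIs per cell. The intervals of the 4 members did not overlap in either library, so this order was the same in both. Cells were thinned to 2000 UMIs each to compare shares at a matched depth. A UMI of Ear2 was then seen in 92.3% and 91.2% of alveolar macrophage-like cells, of Ear10 in 74.7% and 73.9%, of Ear1 in 66.2% and 65.5% and of Ear6 in 12.4% and 13.2%. Unthinned, the shares were 99.0% and 99.3%, 96.9% and 96.3%, 94.3% and 96.2%, and 40.6% and 42.2%. In T cell-like cells, which should lack the genes, the thinned share for Ear2 was 2.67% and 4.47%, at a median depth of 5806 and 6029 UMIs against 8375 and 8714 in alveolar macrophage-like cells.

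**Figure D1:**
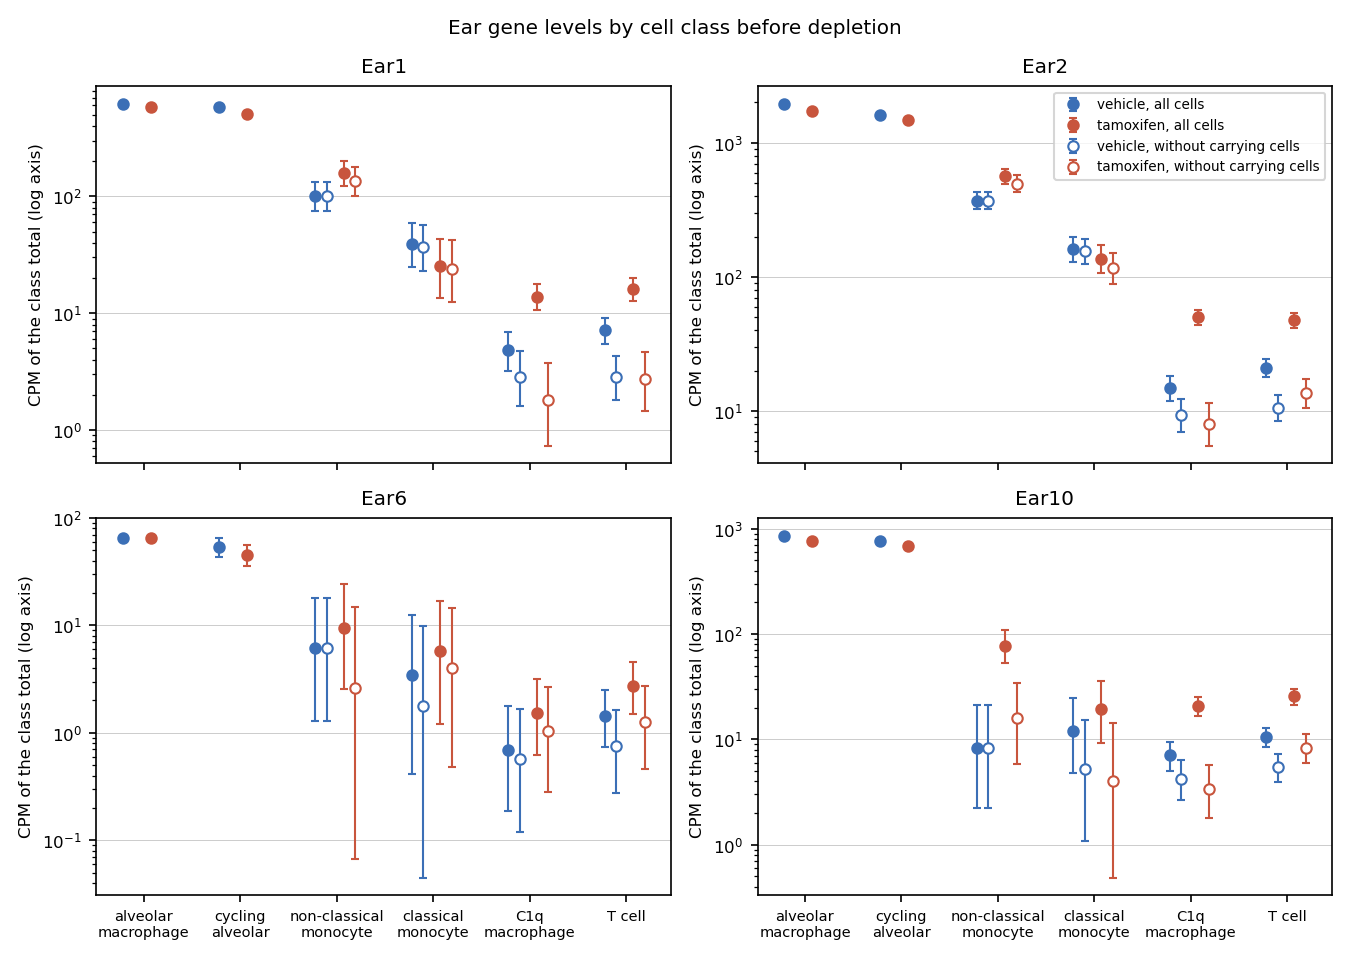
Level of each Ear gene (CPM of the class total, log axis) by cell class in the libraries before depletion, vehicle in blue and tamoxifen in red; bars are exact 95% Poisson intervals. Filled points use all cells and open points leave out cells that carry alveolar macrophage markers, as described in the text. All 4 genes are highest in both alveolar classes, Ear1 and Ear2 are intermediate in monocyte-like cells, and C1q macrophage-like cells sit at or below T cell-like cells for Ear1, Ear2 and Ear10 once carrying cells are left out.

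Most Ear molecules of a library were in alveolar macrophages. The alveolar macrophage-like cells that were not cycling held 76.2% to 81.3% of the UMIs of each member in vehicle and 81.6% to 84.2% in tamoxifen, and the cycling ones held a further 9.23% to 10.6% and 6.09% to 7.94%. Depletion of CD45 and CD31 cells removed almost all of the signal. After depletion Ear2 had 18 UMIs in all 6923 vehicle cells and 42 in all 7358 tamoxifen cells. In epithelial-like cells, 1012 vehicle cells held 345 UMIs of Ear2 before depletion (10.8 CPM), while 6467 held 0 after it, which allows a share of cells with a UMI of up to 0.0469% at the thinned depth. In tamoxifen the counts were 658 UMIs in 1074 cells (18.9 CPM) before and 2 in 7061 after. Epithelial-like cells that carry next to no Ear RNA after depletion thus had Ear2 UMIs before it, and T cell-like cells stood at 21.05 and 47.3 CPM. Levels of this size were taken as the background for the other classes.

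Over the myeloid classes the order of Ear2 was alveolar macrophage-like, cycling alveolar, non-classical monocyte-like, classical monocyte-like and C1q macrophage-like in both libraries. Non-classical monocyte-like cells had 371 CPM of Ear2 (319 to 429; 180 UMIs in 65 cells) in vehicle and 562 CPM (493 to 638; 238 UMIs in 50 cells) in tamoxifen. Classical monocyte-like cells had 161 CPM (130 to 197) and 136 CPM (106 to 172). C1q macrophage-like cells had 14.8 CPM (11.8 to 18.2) and 49.9 CPM (43.6 to 56.8), next to 21.05 CPM (18.1 to 24.4) and 47.3 CPM (41.5 to 53.7) in T cell-like cells. Neighbours in this order did not overlap, except that C1q macrophage-like and T cell-like cells overlapped in both libraries. Neutrophil-like cells, at 31.0 CPM (24.5 to 38.8) and 55.8 CPM (45.7 to 67.5), were close to that background too.

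Ear1 followed the order of Ear2, though its vehicle values in cycling and other alveolar cells did not differ beyond counting error, and Ear10 did not follow it. Ear1 stood at 101 and 158 CPM in non-classical monocyte-like, at 39.4 and 25.3 CPM in classical monocyte-like and at 4.81 and 13.8 CPM in C1q macrophage-like cells, with 7.13 and 16.0 CPM in T cell-like cells. In tamoxifen the classical monocyte-like (13.5 to 43.3) and T cell-like (12.8 to 19.9) intervals for Ear1 overlapped. Ear10 stood at 12.0 and 19.5 CPM in classical monocyte-like cells, 7.04 and 20.6 CPM in C1q macrophage-like cells and 10.5 and 25.6 CPM in T cell-like cells, all overlapping within a library. In non-classical monocyte-like cells Ear10 was at 8.24 CPM in vehicle (4 UMIs) and at 77.9 CPM in tamoxifen (33 UMIs). Ear6 had 2 to 7 UMIs in each monocyte-like or C1q macrophage-like class, too few to order these classes.

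Classes were called apart by size where a gene had at least 10 CPM in either class and differed at least 2-fold, after 1 CPM was added to both. By this rule all 4 members were higher in alveolar macrophage-like than in C1q macrophage-like cells, 39.2-fold to 124-fold in vehicle and 25.9-fold to 39.4-fold in tamoxifen, while 11.4% and 11.7% of all genes considered were higher. All 4 were also higher than in classical monocyte-like cells (17.3% and 16.8% of all genes) and than in non-classical monocyte-like cells (18.6% and 16.7%). The gap to non-classical monocyte-like cells was 5.25-fold and 3.06-fold for Ear2 and 6.02-fold and 3.68-fold for Ear1, but 93.2-fold and 9.67-fold for Ear10. The gap of Ear6 was 9.21-fold and 6.30-fold, on 3 and 4 UMIs in the monocytes. Against T cell-like cells, 0 of 4 members were higher in C1q macrophage-like cells in either library (16.6% and 16.6% of all genes were). Ear1 and Ear2 were higher in classical monocyte-like cells of vehicle and Ear2 alone in those of tamoxifen (16.9% and 17.6%). In non-classical monocyte-like cells Ear1 and Ear2 were higher in vehicle and Ear1, Ear2 and Ear10 in tamoxifen (17.3% and 18.6%).

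The proportion of the 4 genes among each other differed between monocyte-like and alveolar macrophage-like cells. Background RNA from 1 source keeps its genes in 1 ratio in every class of a library, so this proportion was computed for each class. In alveolar macrophage-like cells Ear2 made up 55.9% and 55.0% of the UMIs of the 4 genes, Ear10 24.6% and 24.3%, Ear1 17.6% and 18.6% and Ear6 1.87% and 2.07%. T cell-like cells had Ear10 at 26.1% (21.5% to 31.1%) and 27.9% (23.9% to 32.2%), C1q macrophage-like cells at 25.8% (19.2% to 33.3%) and 24.0% (19.9% to 28.6%), and epithelial-like cells at 24.8% and 27.2%. The vehicle values of these 3 classes overlapped the alveolar proportion, and so did those of tamoxifen except in epithelial-like cells (24.8% to 29.7% against 24.0% to 24.7%). Epithelial-like cells of tamoxifen also had less Ear2, at 50.6% (47.9% to 53.4%), and more Ear6, at 3.62% (2.67% to 4.78%), than alveolar cells. In vehicle their Ear2 and Ear6 shares overlapped the alveolar ones. A class used as background thus did not keep the alveolar ratio in tamoxifen. Non-classical monocyte-like cells had only 1.69% (0.464% to 4.28%) and 9.65% (6.74% to 13.3%) of their Ear UMIs in Ear10, and 76.3% and 69.6% in Ear2. Classical monocyte-like cells had 5.56% (2.26% to 11.1%) and 10.4% (5.11% to 18.3%) in Ear10, and 74.6% and 72.9% in Ear2. In both monocyte-like classes Ear2 was above and Ear10 below the alveolar share in each library, with no overlap. This was not particular to monocytes. A cycling cluster positive for C1q genes had Ear10 at 9.30% and 12.6% and Ear2 at 72.1% and 63.6%, and a cluster led by Cd209a had Ear10 at 15.3% and 15.4% and Ear2 at 64.8% and 66.7%, again with no overlap with the alveolar shares. Of the other low classes, endothelial-like cells of tamoxifen had more Ear10 (33.1%, 26.2% to 40.6%) and plasma cell-like cells of tamoxifen less Ear2 (44.2%, 34.5% to 54.3%) than the alveolar share. Neither held in vehicle, where both intervals overlapped the alveolar share. Endothelial-like cells there had Ear10 at 36.5% (24.7% to 49.6%) and plasma cell-like cells Ear2 at 61.7% (48.2% to 73.9%). In both libraries, then, the proportions of the monocyte-like, cycling C1q-positive and Cd209a-led classes lay apart from the alveolar one, and the reason was not tested.

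**Figure D2:**
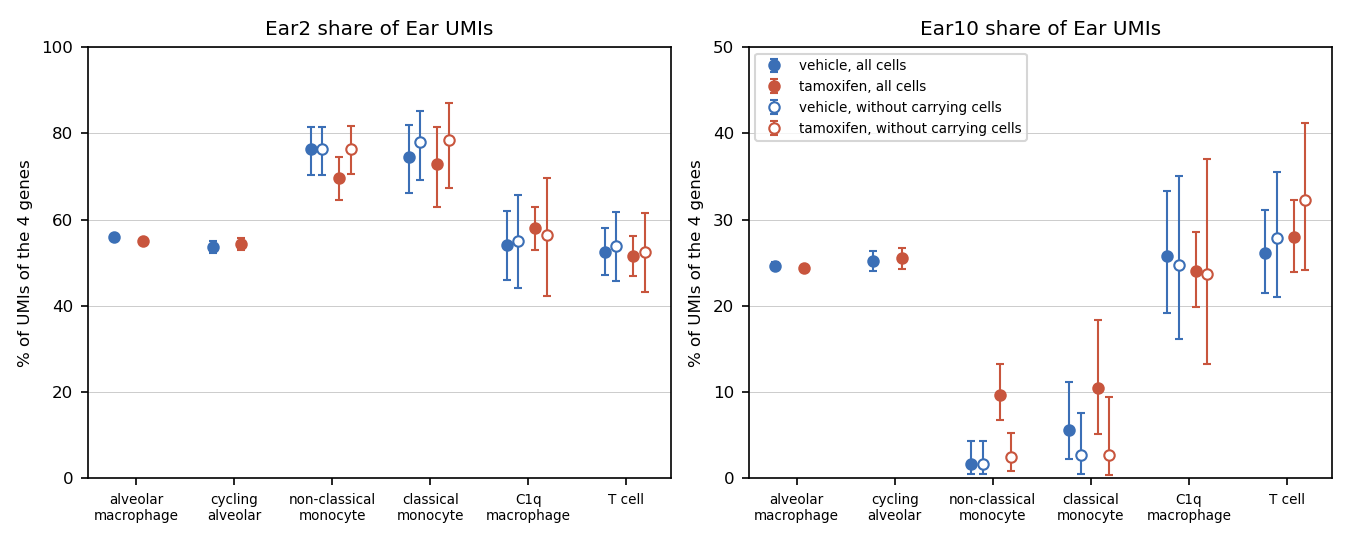
Share of Ear2 (left) and Ear10 (right) in the summed UMIs of the 4 Ear genes, in %, by cell class before depletion; bars are exact 95% Clopper-Pearson intervals, filled points all cells and open points without carrying cells. Monocyte-like cells have a higher Ear2 and a lower Ear10 share than alveolar macrophage-like cells, while the intervals of C1q macrophage-like cells include the alveolar values.

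Cells of the other classes also held UMIs of genes on the alveolar macrophage marker list. The summed level of the 13 alveolar macrophage markers was 13475 and 11668 CPM in that class, 905 and 1743 CPM in non-classical monocyte-like, 1550 and 2381 CPM in classical monocyte-like, 821 and 1013 CPM in C1q macrophage-like and 210 and 337 CPM in T cell-like cells. Pparg alone made up 352 and 220 CPM of the non-classical sums, against 309 and 279 CPM in the alveolar class. Chil3 is on the classical monocyte marker list as well. These sums thus include genes that are not particular to alveolar macrophages. Of the 13 markers, 3 and 8 were seen in at least 10% of non-classical and 3 and 3 in at least 10% of classical monocyte-like cells. Marco and Krt79 had no UMI in either monocyte-like class of either library. Marco stood at only 39.0 and 20.4 CPM in alveolar macrophage-like cells, so its absence from such small classes says little. The levels were therefore also computed without cells that held at least 3 UMIs in all of Siglecf, Marco, Fabp1, Car4, Krt79, Atp6v0d2 and Plet1, a choice made after the values had been seen. The cells left out are called carrying cells here. They were 0 and 3 non-classical, 1 and 1 classical, 25 and 32 C1q macrophage-like and 18 and 18 T cell-like cells. Among neutrophil-like cells, whose Ear2 was close to the background, they were 98 and 153 (14.9% and 30.1%). The eosinophil marker list, which includes Siglecf, summed to 144 and 197 CPM in neutrophil-like cells. In alveolar macrophage-like cells it summed to 72.5 and 96.3 CPM. Whether the chosen markers point to alveolar RNA alone was not tested.

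Without carrying cells the monocyte values for Ear1 and Ear2 stayed well above the T cell-like ones, and those for Ear10 were not above them beyond counting error. Ear2 was then at 371 and 497 CPM in non-classical and 155 and 116 CPM in classical monocyte-like cells, against 10.6 and 13.6 CPM in T cell-like cells. Of the T cell-like Ear2 UMIs, 92 of 177 in vehicle and 177 of 242 in tamoxifen were in the 18 carrying cells of each library. Ear1 was at 101 and 135 CPM and 37.0 and 24.0 CPM, against 2.86 and 2.72 CPM. Ear10 was at 8.24 and 15.8 CPM in non-classical and 5.28 and 4.003 CPM in classical monocyte-like cells, against 5.47 and 8.36 CPM, and the intervals of the log2 ratio of either monocyte-like class over T cell-like cells included 0 for Ear10 in both libraries. The share of Ear10 was 1.69% and 2.44% in non-classical and 2.65% and 2.70% in classical monocyte-like cells, and that of Ear2 76.3% and 76.4% and 77.9% and 78.4%. Over both monocyte-like classes and both libraries these shares spanned 1.69% to 2.70% for Ear10, with overlapping intervals. The selection was not independent of Ear10, since Atp6v0d2, which is among its markers, followed Ear10 over the myeloid classes (r of 0.97). Carrying cells held 27 of 33 Ear10 UMIs in non-classical cells of tamoxifen, and 4 of 7 and 8 of 10 in classical cells. In non-classical cells of vehicle no cell was left out. How far the low and even Ear10 shares come from the selection was not tested.

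C1q macrophage-like cells lost most of their Ear2 UMIs with the carrying cells in tamoxifen and fewer in vehicle. Of 227 Ear2 UMIs in tamoxifen, 196 were in the 32 carrying cells, and of 86 in vehicle 37 were in the 25 carrying cells. The remaining cells had Ear2 at 9.35 and 8.03 CPM, Ear10 at 4.20 and 3.37 CPM and Ear1 at 2.86 and 1.81 CPM. On the log2 scale Ear2 in C1q macrophage-like over T cell-like cells was -0.16 (-0.71 to 0.35) in vehicle and -0.69 (-1.43 to -0.12) in tamoxifen, so it was not above the background in either. Thinned and with all cells, 2.58% and 5.34% of C1q macrophage-like cells had an Ear2 UMI, close to the T cell-like shares of 2.67% and 4.47%, at a median depth of 15420 and 15746 UMIs per cell. The intervals of the 2 classes overlapped in each library (1.19% to 4.84% and 1.81% to 3.79% in vehicle, 3.02% to 8.65% and 3.04% to 6.32% in tamoxifen), so a share above that of T cell-like cells was not detectable.

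A cluster led by Arg1, of 531 vehicle and 314 tamoxifen cells, was given no cell type name, and its Ear proportions were nearer to those of monocyte-like than of alveolar cells. It had Ear2 at 221 and 256 CPM and Ear10 at 31.7 and 33.2 CPM, with Ear10 at 9.80% and 9.05% of the Ear UMIs. Carrying cells made up 28.1% and 38.9% of it, and without them Ear2 was at 102 and 139 CPM and the Ear10 share at 5.64% and 4.01%. Arg1, the enzyme that breaks down arginine, is the gene that leads this cluster and was used to form it.

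Cycling alveolar macrophage-like cells had slightly lower levels of all 4 genes than the other alveolar cells of the same library. In vehicle Ear1, Ear2, Ear6 and Ear10 stood at 585, 1615, 53.4 and 759 CPM in cycling cells, and in tamoxifen at 504, 1471, 45.0 and 691 CPM. The log2 ratio of cycling over non-cycling cells in vehicle was -0.07 (-0.16 to 0.03) for Ear1, -0.27 (-0.33 to -0.22) for Ear2, -0.28 (-0.61 to 0.02) for Ear6 and -0.18 (-0.26 to -0.10) for Ear10. In tamoxifen it was -0.21 (-0.31 to -0.12), -0.23 (-0.28 to -0.17), -0.52 (-0.87 to -0.21) and -0.14 (-0.23 to -0.06). By the size rule 0 of 4 members differed in either library, while 7.46% and 8.7% of all genes did. Counted per cell and not as CPM, the direction turned for Ear1, Ear2 and Ear10 in both libraries: cycling cells held 6.51 and 6.20 UMIs of Ear1 per cell, 18.0 and 18.1 of Ear2 and 8.44 and 8.50 of Ear10. Cycling cells were also deeper, with a median of 9987 and 11516 UMIs per cell against 8375 and 8714, and the part of this in the result was not tested. The Ear proportions of cycling cells were close to those of the others, with Ear2 at 53.6% and 54.3% and Ear10 at 25.2% and 25.5%.

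The levels varied more between sub-clusters of alveolar macrophage-like cells than between cycling and non-cycling ones. The class was made of 6 non-cycling sub-clusters, numbered 1, 2, 3, 4, 5 and 10, and the cycling sub-clusters 13 and 15. Sub-cluster 5 had the highest Ear2, 3911 CPM in vehicle and 3150 CPM in tamoxifen, followed by sub-cluster 1 with 2792 and 2355 CPM. The other non-cycling ones ranged from 1384 to 1770 CPM in vehicle and from 1336 to 1782 CPM in tamoxifen. Ear10 was highest in the same 2 sub-clusters, at 1281 and 1116 CPM in sub-cluster 5 and 1243 and 1164 CPM in sub-cluster 1. Ear1 was at 986 and 928 CPM and 872 and 801 CPM there. Ear6 was highest in sub-cluster 1 (92.9 and 98.3 CPM) and stood at 71.5 and 64.3 CPM in sub-cluster 5. Sub-cluster 5 is small, 6.27% and 4.64% of all alveolar macrophage-like cells, and Ang4 and Ang5, angiogenins of the same superfamily, were among the 10 genes that lead it. The Ear genes had no part in forming the sub-clusters, but other genes of the same cells did.

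Sub-cluster 10, led by the leptin receptor gene Lepr and by Adamdec1 and Ang5, had the lowest Ear10 of the non-cycling sub-clusters, 488 and 557 CPM. It held 127 of 1515 vehicle and 528 of 2027 tamoxifen alveolar macrophage-like cells (8.38% and 26.0%), and with 1 library per group this may be a property of the library. Relative to the other non-cycling sub-clusters the log2 ratio was -0.89 and -0.61 for Ear10, -0.61 and -0.44 for Ear1, -0.50 and -0.35 for Ear2 and -0.49 and -0.51 for Ear6. By the size rule 0 of 4 members were lower (1.86% and 1.3% of all genes were). Ear2 made up 60.0% and 57.4% of the Ear UMIs in sub-cluster 10 and 62.6% and 59.9% in sub-cluster 5, against 52.5% to 55.8% in the other alveolar sub-clusters. Ear10 made up 20.5% to 22.1% in these 2 sub-clusters and 23.9% to 27.5% in the others.

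**Figure D3:**
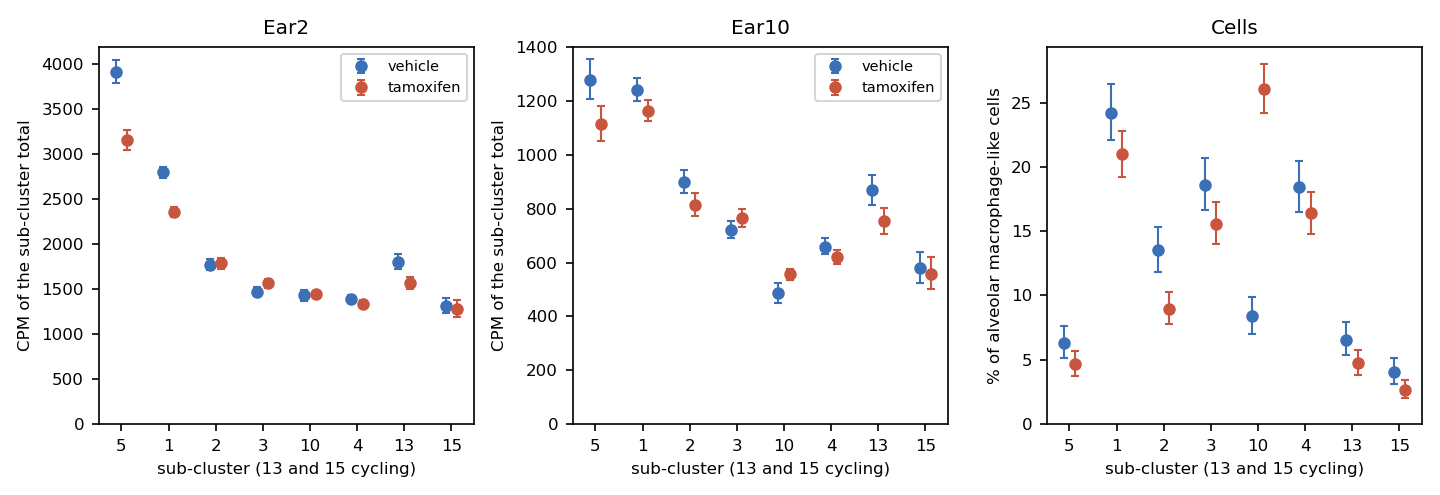
Level of Ear2 and Ear10 (CPM of the sub-cluster total) and share of all alveolar macrophage-like cells (%) for each alveolar sub-cluster and library; bars are exact 95% Poisson intervals for levels and Clopper-Pearson intervals for shares. Sub-clusters 5 and 1 stand above the others for both genes, and sub-cluster 10 is the one with a larger share of the alveolar cells in tamoxifen.

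Part of the GM-CSF and PPARg programme was low in sub-cluster 10 while other ribonucleases were not. Of 16 genes on the programme list, 16 and 15 reached the minimum level in vehicle and tamoxifen. Of these, 8 and 6 were at least 2-fold lower in sub-cluster 10, beside 1.86% and 1.3% of all genes considered. The other 8 and 9 were not past the rule, none was higher, and the median log2 ratio was -0.88 and -0.90. Lpl, also on the list, was among the 10 genes that lead sub-cluster 10 over all other cells before depletion. The median over all genes considered was 0.01 and -0.01. Fabp4, a lipid carrier, stood at 14.0 CPM in sub-cluster 10 against 150 CPM in the other sub-clusters of vehicle and at 9.73 against 136 CPM in tamoxifen. Pparg stood at 153 against 328 CPM and at 174 against 325 CPM. Of 17 other RNase A superfamily genes on a list that includes the ribonuclease inhibitor Rnh1, 8 reached the minimum and 0 passed in either direction, with a median log2 ratio of 0.18 and 0.33. Of all genes considered, 348 of 8171 were higher and 152 lower in vehicle, and 213 of 7981 higher and 104 lower in tamoxifen. Ang5 stood at 255 against 141 CPM and 228 against 158 CPM. The programme genes took part in forming the sub-clusters, so these values describe sub-cluster 10 and are no test of it.

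Among single alveolar macrophage-like cells the genes varied widely and partly together. At 2000 UMIs per cell the summed Ear count had a median of 6 in both libraries, quartiles of 4 and 9 in vehicle and 3 and 8 in tamoxifen, and a highest value of 62 and 64. Only 1.64% and 1.66% of cells had no Ear UMI. The variance of Ear2 was 3.99 and 3.17 times its mean, that of Ear10 1.80 and 1.78 times and that of Ear1 1.56 and 1.54 times, while Ear6 was near the counting limit at 1.07 in both. Across cells, Pearson's r was 0.49 and 0.46 for Ear1 with Ear2, 0.45 and 0.40 for Ear2 with Ear10 and 0.34 and 0.31 for Ear1 with Ear10. Pairs with Ear6 had r of 0.06 to 0.12. These are descriptions over 1342 and 1864 cells of 1 library each, which share its background, and paralogs that share reads would move together as well.

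**Figure D4:**
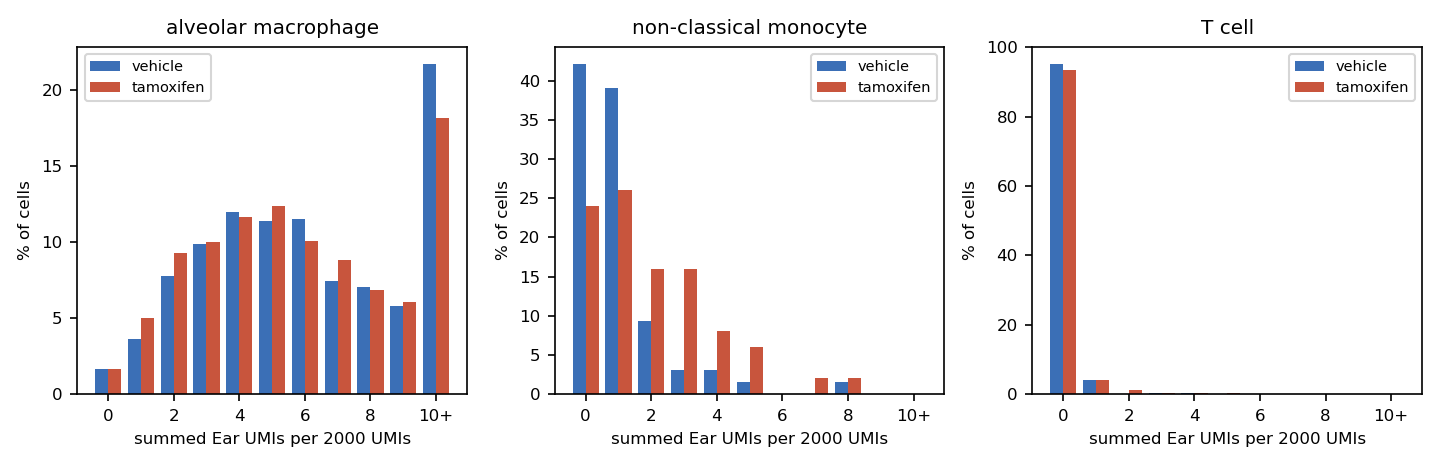
Summed UMIs of the 4 Ear genes per cell after thinning to 2000 UMIs, as % of cells, in alveolar macrophage-like, non-classical monocyte-like and T cell-like cells before depletion; the last bar holds all cells with 10 or more. Alveolar macrophage-like cells spread around a median of 6, non-classical monocyte-like cells around 1 and 1.5, and 95.4% and 93.6% of T cell-like cells have none.

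In non-classical monocyte-like cells the Ear2 UMIs were spread over most cells. Their summed thinned count had a median of 1 in vehicle and 1.5 in tamoxifen, and 42.2% and 24.0% of cells had none. Ear2 alone was seen in 54.7% (41.7% to 67.2%) and 68.0% (53.3% to 80.5%) of them, at a median depth of 7294 and 7302 UMIs. In classical monocyte-like cells the share was 23.6% (13.2% to 37.0%) and 18.8% (8.95% to 32.6%), also above the T cell-like share. The Ear10 counts in tamoxifen were different: 27 of the 33 UMIs lay in 3 of 50 cells. These 3 cells also held 204 of the 379 UMIs of Chil3 and 17 of the 20 of Atp6v0d2, a proton pump subunit. Chil3, a chitinase-like protein, is on the marker lists of both alveolar macrophages and classical monocytes. In vehicle the 3 cells with most Ear10 held 3 of its 4 UMIs and none of the class's 71 UMIs of Chil3 and 2 of Atp6v0d2.

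Between treatments, the Ear genes of alveolar macrophage-like cells differed little. As a log2 ratio, tamoxifen over vehicle came to -0.07 (-0.11 to -0.03) for Ear1, -0.18 (-0.21 to -0.16) for Ear2, -0.01 (-0.14 to 0.13) for Ear6 and -0.17 (-0.21 to -0.14) for Ear10. By the size rule 0 of 4 members differed, while 0.507% of the 7892 genes considered did, 24 higher and 16 lower in tamoxifen. Without sub-cluster 10, a choice made after its share had been seen, the ratios were -0.0054 for Ear1, -0.13 for Ear2, 0.08 for Ear6 and -0.092 for Ear10, so the differences for Ear1, Ear2 and Ear10 were smaller without it. Within sub-clusters the direction was mixed: Ear2 ranged from -0.31 in sub-cluster 5 and -0.25 in sub-cluster 1 to 0.09 in sub-cluster 3. In cycling alveolar macrophage-like cells the ratios were -0.22 (-0.35 to -0.09), -0.14 (-0.21 to -0.06), -0.24 (-0.69 to 0.19) and -0.14 (-0.25 to -0.02), with 0 of 4 past the rule against 2.24% of all genes.

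In C1q macrophage-like and T cell-like cells the tamoxifen values of Ear1, Ear2 and Ear10 were higher with all cells, and their intervals included vehicle without carrying cells. In C1q macrophage-like cells the log2 ratio was 1.35 (0.86 to 2.22) for Ear1, 1.69 (1.39 to 2.13) for Ear2 and 1.43 (1.01 to 2.12) for Ear10, 3 of 4 members past the rule, while 0.524% of all genes were higher there and 1.67% differed in either direction. Without carrying cells the same ratios were -0.46 (-2.19 to 0.72), -0.20 (-0.92 to 0.46) and -0.25 (-1.43 to 0.73), so the direction turned and the intervals included 0. T cell-like cells, which should lack the genes, had a like difference of 1.07, 1.13 and 1.22 for Ear1, Ear2 and Ear10 (1.4% of all genes were higher), and -0.05, 0.33 and 0.53 without carrying cells. The tamoxifen library also held the larger share of alveolar macrophage-like cells, and the part of that in these levels was not tested. The doublet filter had removed 225 cells of the vehicle and 116 of the tamoxifen library before depletion. With doublets kept, Ear2 and Ear10 in C1q macrophage-like cells were less than 2-fold higher in tamoxifen.

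In non-classical monocyte-like cells Ear1 and Ear2 were higher in tamoxifen beyond counting error but not past the size rule. The log2 ratio of Ear2 was 0.60 (0.31 to 0.89), and 0.42 (0.12 to 0.72) without the 3 carrying cells. Ear1 stood at 0.64 (0.09 to 1.21), and at 0.41 (-0.18 to 1.01) without them. Ear10 was past the rule at 3.09 (1.75 to 5.20), where 7.66% of all genes were higher, but stood at 0.87 (-1.13 to 3.21) without them. In the same cells 3 of 12 genes of the GM-CSF and PPARg programme that reached the minimum were past the rule, Car4 (1 UMI in vehicle and 13 in tamoxifen), Fabp5 and Lpl, all higher in tamoxifen. Car4 is also one of the 7 markers that define carrying cells, and these 3 genes are given with all cells only. In classical monocyte-like cells the ratios were -0.62 for Ear1, -0.24 for Ear2, 0.63 for Ear6 and 0.66 for Ear10, all with intervals that included 0, and 0 of 4 were past the rule against 12.0% of all genes.

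**Figure D5:**
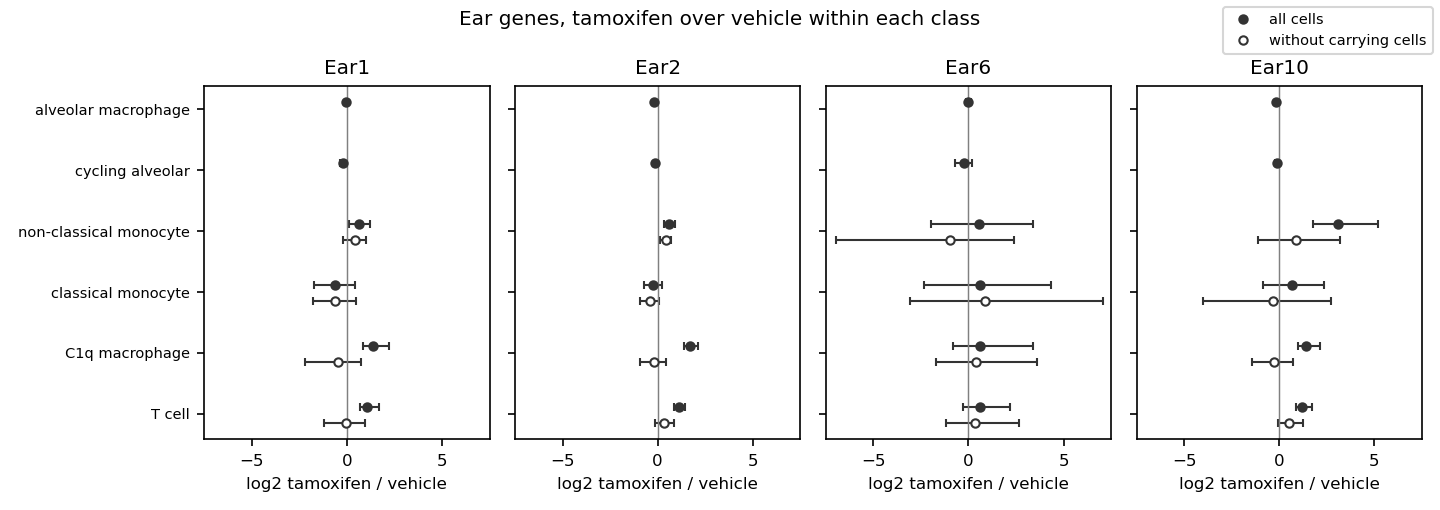
Log2 ratio of tamoxifen over vehicle for each Ear gene within each class before depletion; bars are exact conditional binomial 95% intervals, filled points use all cells and open points leave out carrying cells. Both alveolar classes lie near 0, and the higher tamoxifen values of C1q macrophage-like and T cell-like cells move towards or past 0 without carrying cells.

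The other ribonucleases of the superfamily gave a mixed picture in alveolar macrophage-like cells. Of the 17 listed genes 8 reached the minimum, 0 passed the rule between treatments, and their median log2 ratio was 0.30 against -0.03 over all genes considered. Rnh1, which binds and blocks these enzymes, was the highest at 315 and 267 CPM. Ang4 stood at 169 and 219 CPM, Ang5 at 153 and 179 CPM and Ang2 at 51.3 and 76.8 CPM. Ear14, the fifth Ear gene of the list, had only 0.328 and 0.283 CPM (4 and 5 UMIs). The angiogenins Ang4 and Ang5 resembled Ear10 more than Ear2 over the classes, with 0 to 4.72 CPM in non-classical monocyte-like cells. Rnase6, an antimicrobial ribonuclease, had the opposite pattern, at 188 and 184 CPM in non-classical monocyte-like against 16.5 and 22.0 CPM in alveolar macrophage-like cells, and it was highest in plasmacytoid dendritic cell-like cells at 1194 and 1114 CPM. Rnase4 was higher in C1q macrophage-like (155 and 120 CPM) than in alveolar macrophage-like cells (45.4 and 48.7 CPM).

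In the GM-CSF and PPARg programme 1 of 16 genes passed the rule between treatments in alveolar macrophage-like cells, against 0.507% of all genes considered. This was Cidec, a lipid droplet protein, at 14.99 CPM in vehicle and 5.99 CPM in tamoxifen, and the list's median log2 ratio was -0.16. Without sub-cluster 10, 0 of the 16 genes passed and the median was -0.03. Cebpb, Fabp5 and Lpl, its most abundant members, stood at 2271 and 2010, 1529 and 1236, and 1270 and 1131 CPM. On the list of type 2 activation genes 10 of 14 reached the minimum and 2 passed, beside the same 0.507%. Ccl17, a chemokine, was higher in tamoxifen (12.5 and 28.2 CPM) and Ccl24, an eosinophil-attracting chemokine, was lower, at 10.1 CPM (123 UMIs) in vehicle and 0.0565 CPM (1 UMI) in tamoxifen. Chil3, the most abundant gene of that list, stood at 8067 and 6122 CPM and was not past the rule. Without sub-cluster 10, 8 of the 14 genes reached the minimum, with 0 higher and 2 lower in tamoxifen. Ccl17 was thus no longer past the rule. Of all 7854 genes then considered, 11 were higher and 18 lower.

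Over the named myeloid classes the genes most like each member were found by Pearson's r of log2(CPM + 1) over 16 class and library sums, among 11113 genes that reached 10 CPM in any of these sums. For Ear1 the 5 most alike were Ubqln1 (r of 0.94), Ddx46, Pparg, Mcoln1 and Coro2b, and for Ear2 Aifm2 (0.93), Mapk3, Nln, Pparg and Vapb. For Ear6 they included Kcnn3 (0.95), Mcoln1 and Trim29. For Ear10 they were Kcnn3 (0.99), Atp6v0d2 (0.97), Gm41307, Flvcr2 and Ang4 (0.96). Among the members r was 0.98 between Ear1 and Ear2 and 0.87 between Ear2 and Ear10, the lowest pair. Pparg, which was on the lists of both Ear1 and Ear2, was high in alveolar macrophage-like (309 and 279 CPM) and non-classical monocyte-like cells (352 and 220 CPM) and low in classical ones (6.85 and 5.84 CPM). Kcnn3, a potassium channel subunit, was high in alveolar macrophage-like cells alone of these 3, at 169 and 158 CPM against 2.06 and 14.2 CPM in non-classical and 1.71 and 7.79 CPM in classical monocyte-like cells. The sums of a library share its depth and background, so these r are descriptions.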

How the data were processed

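Single-cell RNA libraries were made from mouse lung tumour suspensions, before and after bead depletion for each treatment, with 10x 3′ v3 chemistry, per the labels' protocols. The values are whole UMI counts as the authors deposited them, from Cell Ranger, version 7.0.1 per the file headers and 7.2.0 per the submitters' processing notes, on mm10 per those notes. The annotation release and the handling of introns and strand are not given in the sources used here. The members and the gene lists were chosen with earlier results of these data known.

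Barcodes under 200 genes or over 20% mitochondrial UMIs were dropped, and cells with a doublet score above 0.25 (Scrublet in scanpy 1.11.5) were removed, 116 to 225 per library. The score was fixed because the automatic threshold called at most 1 cell in 3 of the 4 libraries. Cells were clustered in 3 stages (2000 variable genes, 1000 for monocytes, without Ear genes) and named from marker lists, with at least 3 detected markers. UMIs were summed per class and library. Ratios are log2 of CPM + 1, called apart from 2-fold at 10 CPM or more. Intervals are 95% exact Poisson (levels), Clopper-Pearson (shares) and conditional binomial (ratios, without the added 1 CPM) intervals from SciPy 1.17.1. Cells were thinned to 2000 UMIs for shares, which left out 13 alveolar macrophage-like cells of each library. Totals ranged from 92644997 to 144994771 UMIs per library. A UMI is 1 molecule, so the precision of a level is set by its number of UMIs, and a count of 0 allows 3. Sums and ratios were tested on simulated data. The genes named are the 4 members, the 5 most like each over the myeloid classes, and members of the lists; a few named items, among them part of the genotype, are not reported here. edgeR 4.0.16 gave TMM factors for an alternative. Alternatives changed the scaling, the added CPM, the cell filter, doublets, clustering with Ear genes, subtraction of the T cell-like level, thinning and the size rule, and 3 were added after the values were seen.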

Additional observations from a re-analysis of the deposited data

Results flagged for a closer look

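Among the macrophage and monocyte classes compared, the tamoxifen over vehicle ratios of 3 members pointed the other way in 2 small classes than in alveolar macrophage-like cells. In the alveolar cells they were -0.07 for Ear1, -0.18 for Ear2 and -0.17 for Ear10 on the log2 scale. In C1q macrophage-like cells they were 1.35 for Ear1, 1.69 for Ear2 and 1.43 for Ear10, and in non-classical monocyte-like cells 0.64, 0.60 and 3.09. Outside this comparison the same 3 ratios were also above 0 in T cell-like (1.07, 1.13 and 1.22) and neutrophil-like cells (1.16, 0.83 and 0.77). With doublets kept, Ear2 and Ear10 in C1q macrophage-like cells were less than 2-fold higher in tamoxifen. With 1 library in each group the difference between classes was not tested. Without carrying cells, which also hold alveolar macrophage markers, the ratios in C1q macrophage-like cells were -0.46, -0.20 and -0.25. In non-classical monocyte-like cells they were then 0.41, 0.42 and 0.87. The Arg1-led cluster went the other way for Ear1 and Ear2. Without carrying cells Ear1 rose there from 0.15 to 0.70 (0.40 to 1.05) and Ear2 from 0.21 to 0.44 (0.26 to 0.62). Ear10 went from 0.07 to -0.02 (-0.77 to 0.70), and the reason for these shifts was not tested.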

How the results depend on the processing

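No paired analysis was possible because each group holds 1 library. Of 150 alternative values for treatment ratios 138 stayed within the counting interval of the value reported. Of the ratios past the size rule, those of C1q macrophage-like cells turned direction without carrying cells, at -0.46 for Ear1, -0.20 for Ear2 and -0.25 for Ear10, and so did Ear1 in T cell-like cells, at -0.05. In C1q macrophage-like cells Ear2 stood at 0.86 and Ear10 at 0.79 with doublets kept, no longer past the size rule. Ratios whose interval already included 0 turned as well: alveolar Ear6 to 0.03 with TMM factors and 0.08 without sub-cluster 10, classical monocyte-like Ear10 to -0.29 when clustered with the Ear genes and -0.33 without carrying cells, and non-classical Ear6 to -1.35 with doublets kept and -0.98 both when clustered with the Ear genes and without carrying cells. In alveolar macrophage-like cells the treatment ratio of Ear2 was -0.15 with TMM factors, and without sub-cluster 10 the ratios were -0.0054 for Ear1, -0.13 for Ear2 and -0.092 for Ear10. Cycling over non-cycling in vehicle, Ear2 was -0.36 with TMM factors and -0.33 as a mean over cells, and Ear10 was -0.29 both when clustered with the Ear genes and when cycling cells were taken by marker UMIs. In tamoxifen Ear1, Ear2 and Ear10 were -0.32, -0.34 and -0.25 with TMM factors and -0.33, -0.32 and -0.30 without sub-cluster 10. With no minimum level 47 genes were higher and 36 lower between treatments in alveolar macrophage-like cells (24 and 16 with it), and at 1.5-fold 72 and 64. For cycling over non-cycling cells with no minimum 781 genes were higher and 447 lower in vehicle (512 and 113 with it) and 907 and 507 in tamoxifen (574 and 155). Levels in CPM moved beyond their counting interval in 18 of 120 cases, and shares of cells in 58 of 80, all of which change the thinning depth. Where a value moved the cause was not tested. Ear6 and Ear10 in monocyte-like cells rest on 2 to 33 UMIs, which limits every ratio of them.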
